A study of Mus musculus with 16 samples.

Results

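The 10 endothelial genes described here were followed across postnatal growth of the mouse liver, 5 that mark the sinusoidal endothelium (Stab1, Stab2, Lyve1, Clec4g and Oit3) and 5 that mark vascular endothelium in general (Pecam1, Cdh5, Kdr, Vwf and Cd34). They were taken by gene name from the expression matrix, where each had 1 row, and made up 10 of the 53379 genes listed. Whole livers of C57BL/6J mice were sequenced as poly-A RNA in 16 libraries, 2 for each of 8 groups. Each library came from a separate animal, as the study's methods state. Mettl3 cKO mice were Mettl3 flox/flox/Alb-Cre and were sampled beside Control mice, whose genotype is labelled WT, on day 1 after birth (P1) and at 1, 2 and 4 weeks (W1, W2 and W4). Mettl3 encodes the enzyme that methylates adenosine at N6 in mRNA. Cre was driven by the albumin enhancer and promoter, which are active in the hepatocyte lineage, so the design did not aim to delete Mettl3 in the endothelial cells whose genes are described here. Livers were not sorted, and a value is the share of a gene's transcripts in RNA of the whole organ.

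Mettl3 itself measured 4.94 to 8.12 FPKM (fragments per kilobase of transcript, scaled to the reads of the library) in the Control libraries and 6.72 to 11.3 FPKM in the libraries labelled cKO. It did not fall at any age. Its log2 differences, cKO minus Control, were 0.26 to 0.47 and were not called at any single age. Averaged over the ages it was called higher in cKO (0.35, limma adjusted p = 0.00364), where 50.4% of all genes tested were called. The FPKM value of Mettl3 covers the whole gene, including the exons outside the loxP sites, so it does not check the labels, and cKO below stands for the label. By Xist and the Y-linked Eif2s3y, 11 livers were male and 5 female. At P1 1 Control liver was male and the 3 others female, at W1 both Control livers were male and both cKO livers female, and all W2 and W4 livers were male. The share of summed FPKM from mitochondrially encoded genes ran from 14.8% to 59.0% and was highest in the W2 Control livers, at 58.1% and 59.0%, against 25.2% and 43.8% in W2 cKO. The estimated depth was 10770000 to 15480000 fragments per library. Hepatocyte transcripts dominated each library, with 10 markers summing to 29182 to 91020 FPKM, as the label of liver tissue requires.

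The sinusoids are the capillaries of the liver lobule. Their endothelial cells are perforated by fenestrae, lack an organized basement membrane, and clear waste macromolecules from blood through scavenger receptors. Stab1 and Stab2 encode stabilin-1 and stabilin-2, the large scavenger receptors of these cells, Lyve1 encodes a hyaluronan receptor shared with lymphatic endothelium and some macrophages, Clec4g encodes the C-type lectin LSECtin, and Oit3 encodes a secreted zona pellucida domain protein. The general vascular genes are not particular to sinusoids: Pecam1 (CD31) and Cdh5 (VE-cadherin) hold cell junctions together, Kdr encodes VEGF receptor 2, Vwf encodes von Willebrand factor, and Cd34 encodes a sialomucin. In chronic liver injury sinusoids can lose fenestrae and take on features of ordinary capillaries, a process called capillarization, in which CD34, CD31 and von Willebrand factor are classical markers. Kdr is also made by sinusoidal cells, Stab1 also by macrophages, Vwf also by megakaryocytes and Cd34 also by blood progenitors.

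The genes lie on 8 mouse chromosomes (GRCm38, the mm10 assembly, GENCODE M21 annotation). Stab1 (ENSMUSG00000042286) spans chr14:31139013-31168641 on the minus strand, Stab2 (ENSMUSG00000035459) chr10:86841198-87008025 on the minus strand, and Clec4g (ENSMUSG00000074491) chr8:3707064-3720651 on the minus strand. Pecam1 (ENSMUSG00000020717) spans chr11:106654217-106750628 on the minus strand, Cdh5 (ENSMUSG00000031871) chr8:104101625-104144511 on the plus strand, and Cd34 (ENSMUSG00000016494) chr1:194938819-194961279 on the plus strand. Summed exon length ran from 2462 bases for Clec4g to 16064 bases for Vwf. Lyve1 was the gene with the fewest reads, about 43 in its lowest library, and Stab1 the one with the most, about 7405 in its highest. Exons of Stab1 overlap those of Nt5dc2 on the opposite strand. The library kit does not mark strand, so reads in the overlap cannot be assigned to either gene. Nt5dc2 measured 2.73 to 23.6 FPKM across the libraries and 6.00 and 2.73 FPKM in W4 Control against 9.32 and 15.1 FPKM in W4 cKO. These values do not show how many reads fell in the overlap, so the Stab1 values are uncertain to an extent that is not known.

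The promoters are shown because ETS and GATA transcription factors are general regulators of endothelial genes. RefSeq promoters were held for 5 of the 10 genes (Cd34, Kdr, Clec4g, Stab2 and Stab1), and the 150 bases upstream of each RefSeq start are printed 5′ to 3′ on the strand of the gene. Capitals mark the ETS family core words AGGAAG and CGGAAG on either strand.
Cd34, chr1:194938671-194938820, plus strand: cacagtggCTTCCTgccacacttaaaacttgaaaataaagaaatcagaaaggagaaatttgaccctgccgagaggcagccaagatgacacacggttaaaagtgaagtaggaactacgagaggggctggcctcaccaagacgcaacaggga
Kdr, chr5:75978456-75978605, minus strand: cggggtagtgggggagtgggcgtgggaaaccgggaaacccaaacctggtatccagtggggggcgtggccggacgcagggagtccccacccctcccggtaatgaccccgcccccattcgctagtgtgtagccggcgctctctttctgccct
Clec4g, chr8:3720652-3720801, minus strand: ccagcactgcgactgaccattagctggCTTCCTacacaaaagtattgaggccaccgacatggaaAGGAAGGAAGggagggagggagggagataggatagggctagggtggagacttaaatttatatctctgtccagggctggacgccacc
Stab2, chr10:87007943-87008092, minus strand: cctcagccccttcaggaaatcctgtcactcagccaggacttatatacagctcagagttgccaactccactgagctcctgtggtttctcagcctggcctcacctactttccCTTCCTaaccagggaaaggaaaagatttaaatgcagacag
Stab1, chr14:31168642-31168791, minus strand: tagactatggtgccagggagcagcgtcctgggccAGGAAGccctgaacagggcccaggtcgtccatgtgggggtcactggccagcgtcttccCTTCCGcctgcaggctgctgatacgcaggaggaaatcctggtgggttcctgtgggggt
In the 250 bases upstream of the start, 4 of the 5 promoters held an ETS word, as did 39.2% of the 32851 promoters in the table. Clec4g held 3 such words, of which the pair that begin 86 and 82 bases before the start overlap each other, and Stab1 held 2. The GATA words AGATAA and TGATAA occurred on neither strand of the 5 promoters and in 16.6% of all promoters. A word match describes the letters of the window and is not evidence of binding.

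In newborn Control liver the sinusoidal genes stood above most of the general vascular genes. Mean FPKM, which is per exon length and so comparable between genes, was 24.5 for Stab1, 21.5 for Clec4g, 15.8 for Oit3 and 15.4 for Stab2, and these 4 neighbours overlapped in their 2 livers each. The next tier of Cdh5 at 9.48, Lyve1 at 9.37, Pecam1 at 8.37 and Kdr at 7.79 FPKM likewise overlapped neighbour by neighbour. Vwf at 3.84 and Cd34 at 3.13 FPKM were the lowest. By W4 the order in Control had become Clec4g at 24.1, Stab1 at 11.1, Stab2 at 6.71 and Oit3 at 4.02 FPKM, none of which overlapped the next. Cdh5 (2.87), Pecam1 (2.58) and Kdr (2.53 FPKM) still overlapped their neighbours, above Lyve1 at 1.32 FPKM, and Vwf at 0.552 and Cd34 at 0.507 FPKM stood last.

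Of the 10 genes 9 fell from P1 to W4 in Control liver, and Clec4g did not. Among all genes tested 54.4% were called in this comparison and 42.1% were called lower, by limma at a Benjamini-Hochberg adjusted p under 0.05. Lyve1 measured 7.69 and 11.05 FPKM in the P1 livers, 5.38 and 2.85 at W1, 1.27 and 1.41 at W2, and 1.57 and 1.06 at W4. The W2 and W4 livers overlapped, so the fall lay between P1 and W2. From P1 to W4 Lyve1 changed by -2.15 on the log2 scale of FPKM + 1 (SE 0.28, adjusted p = 3.3e-05, limma), or 7.12-fold in mean FPKM. Oit3 followed a similar course, from 12.96 and 18.58 FPKM at P1 to 3.59 and 4.38 at W2 and 4.67 and 3.37 at W4 (log2 change -1.73, SE 0.33, limma adjusted p = 0.000694). Both stabilins fell later. Stab2 measured 14.5 and 16.4 FPKM at P1, 21.9 and 17.9 at W1, 20.7 and 21.0 at W2, and 5.99 and 7.44 at W4 (log2 change -1.09, SE 0.24, limma adjusted p = 0.00199). Stab1 measured 26.1 and 22.8, 29.96 and 26.45, 18.0 and 21.6, and 11.20 and 11.04 FPKM at the same ages (log2 change -1.07, SE 0.23, limma adjusted p = 0.00193). Clec4g was level by comparison, with 16.6 and 26.4 FPKM at P1 and 24.2 and 23.9 at W4 (log2 change 0.19, SE 0.23, limma adjusted p = 0.51). After median-of-ratios rescaling, which sets the typical gene equal across libraries, Clec4g passed the threshold upward (0.68, adjusted p = 0.0206) and Stab1 lost its call (-0.59, adjusted p = 0.0576).

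The 5 general vascular genes fell in Control liver by -1.31 to -1.63 on the log2 scale of FPKM + 1, which understates the change of low genes such as Vwf and Cd34. Pecam1 went from 7.05 and 9.69 FPKM at P1 to 8.05 and 5.26 at W1, 6.59 and 4.15 at W2, and 2.86 and 2.31 at W4 (log2 change -1.38, SE 0.26, limma adjusted p = 0.000641). Cdh5 went from 7.06 and 11.9 FPKM at P1 to 3.10 and 2.65 at W4 (-1.40, SE 0.20, limma adjusted p = 9.53e-05). Kdr went from 6.62 and 8.96 to 2.84 and 2.21 FPKM (-1.31, SE 0.24, limma adjusted p = 0.000641). In each of these 3 genes both W4 livers lay below every younger Control liver. Vwf fell from 3.23 and 4.45 to 0.627 and 0.478 FPKM (-1.63, SE 0.20, limma adjusted p = 2.64e-05), and Cd34 from 2.93 and 3.33 to 0.477 and 0.537 FPKM (-1.45, SE 0.25, limma adjusted p = 0.000403). Those are 6.96-fold and 6.17-fold declines in mean FPKM, steeper than the 3.08-fold to 3.30-fold declines of Kdr, Pecam1 and Cdh5, and blood cell markers fell over the same ages. Markers of megakaryocytes and platelets, 6 genes, summed to 249 to 376 FPKM in P1 Control and 5.42 to 7.10 FPKM in W4 Control, and all 6 fell; the 10 erythroid and blood progenitor markers summed to 22807 to 24465 FPKM at P1 and 303 to 362 FPKM at W4. The part of those cells in the falls of Vwf and Cd34 was not tested. In bulk liver, fewer endothelial cells and less of a transcript per endothelial cell cannot be told apart, and the median change of all genes tested was -0.38.

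**Figure D1:**
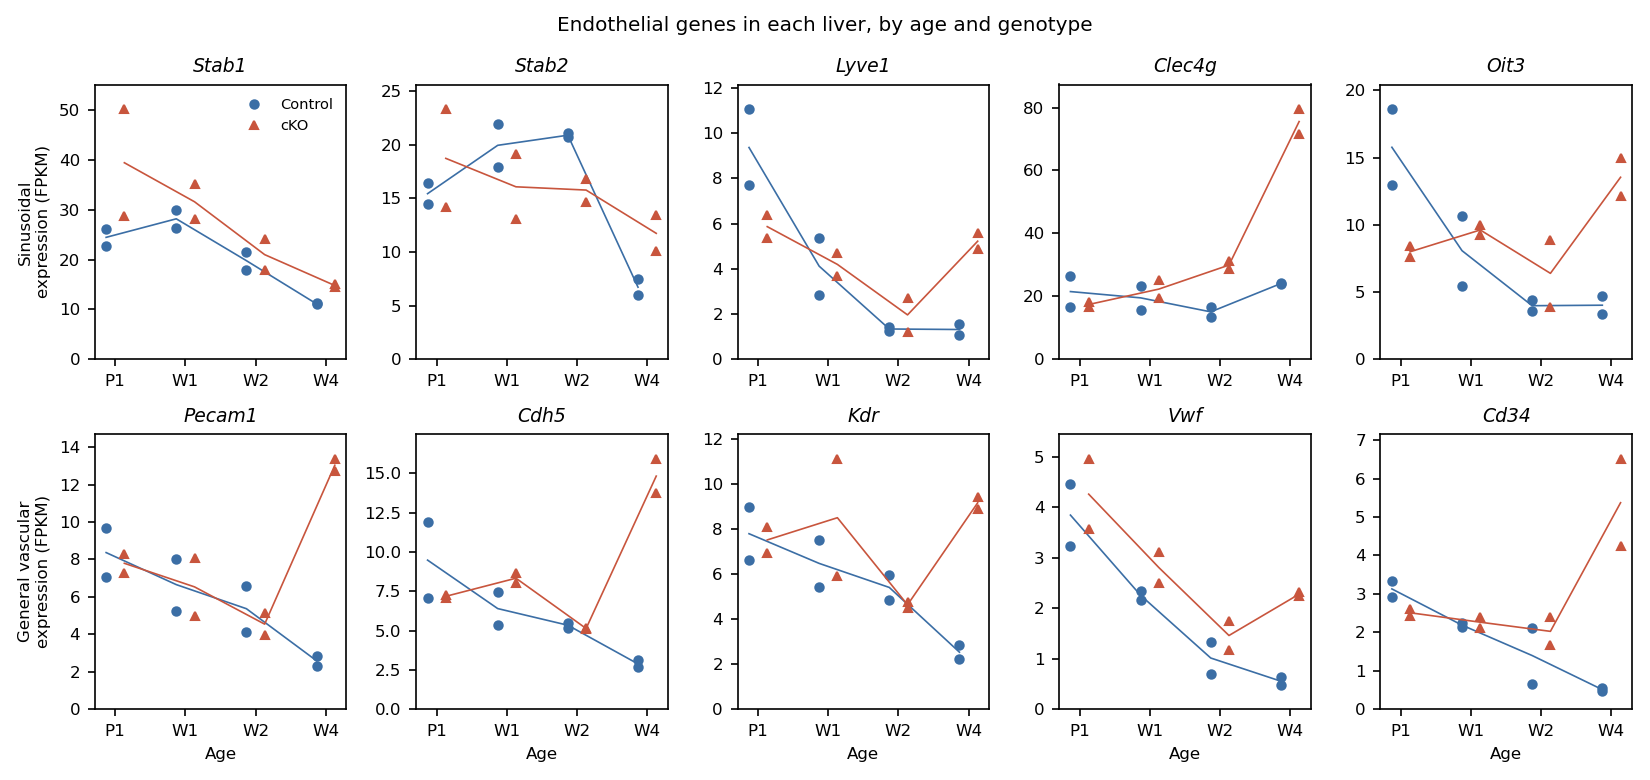
Expression (FPKM, linear axis from 0) of the sinusoidal genes (top row) and the general vascular genes (bottom row) in each of the 16 livers, by age. Blue circles are Control and red triangles cKO, 2 livers per group, and lines join the group means. At W4 both cKO livers lie above both Control livers in all 10 panels, by 1.33-fold for Stab1 and 10.6-fold for Cd34 in mean FPKM, whereas at P1, W1 and W2 the groups mix in most panels.

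At P1 no endothelial gene was called different between cKO and Control, where 0.168% of all genes tested were called. By limma without the intensity trend the count was also 0. Of the 10, 2 passed at an unadjusted p under 0.05, in opposite directions, where 1652 of the 14913 genes tested passed. Oit3 was lower in both cKO livers, at 7.59 and 8.40 FPKM against 12.96 and 18.58 FPKM in Control, without overlap (log2 difference -0.88, SE 0.33, limma adjusted p = 0.38). Stab1 was higher, at 50.2 and 28.8 against 26.1 and 22.8 FPKM (0.62, SE 0.23, limma adjusted p = 0.382), a difference carried mainly by 1 cKO liver. Lyve1 measured 6.36 and 5.37 FPKM in cKO and 7.69 and 11.05 FPKM in Control (-0.58, SE 0.28, limma adjusted p = 0.466). The general vascular genes differed by -0.32 to 0.12.

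At W1 again none of the 10 was called, against 4.83% of all genes tested, and none was called without the intensity trend. None passed at an unadjusted p under 0.05, where 2866 of the 14913 genes tested passed. The differences ran from -0.31 for Stab2 to 0.35 for Cdh5. Cdh5 measured 8.65 and 8.005 FPKM in cKO against 7.42 and 5.37 in Control, without overlap (SE 0.20, 95% confidence interval -0.09 to 0.79, limma adjusted p = 0.39). Genotype and sex cannot be told apart at this age.

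At W2 Clec4g alone was called, where 29.1% of all genes tested were called. It measured 31.2 and 28.7 FPKM in cKO livers and 16.7 and 13.4 FPKM in Control livers, which did not overlap (log2 difference 0.95, SE 0.23, limma adjusted p = 0.00857). The call was lost without Control replicate 2 (0.80, adjusted p = 0.0666) or cKO replicate 1 (0.89, adjusted p = 0.0623), and after rescaling to the median of ratios (0.58, adjusted p = 0.0632) or to the total of nuclear genes (0.47, adjusted p = 0.143). Those same rescalings brought a fall of Stab2 past the threshold: the gene measured 14.7 and 16.8 FPKM in cKO against 20.7 and 21.0 FPKM in Control, a log2 difference of -0.39 as deposited (limma adjusted p = 0.252), of -0.77 after the median of ratios (adjusted p = 0.0312) and of -0.87 after the nuclear total (adjusted p = 0.0317). So at W2 Clec4g and Stab2, both lectin or scavenger receptors of the sinusoidal cell surface, lay on opposite sides of Control under all 3 scalings, and which of them was called depended on the scaling. Cd34 was called without Control replicate 1 (0.85, adjusted p = 0.0251) and Oit3 without cKO replicate 2 (1.00, adjusted p = 0.0368). Pecam1, Cdh5 and Kdr differed by -0.18, -0.05 and -0.18.

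At W4 all 5 general vascular genes and 4 of the 5 sinusoidal genes rose in cKO liver. Among all genes tested 59.2% were called and 46.9% were called higher, so a call on its own was common at this age, and both cKO livers lay above both Control livers in all 10 endothelial genes and in 59.5% of all genes tested. The median log2 difference was 1.97 for the general vascular genes, 1.43 for the sinusoidal genes and 0.44 for all genes tested. After median-of-ratios rescaling these medians were 1.44, 0.98 and 0.01, and 8 of the 10 were called, as were 50.8% of all genes tested.

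Of the general vascular genes Cd34 changed most as a ratio of mean FPKM, from a low Control level. It measured 0.477 and 0.537 FPKM in the W4 Control livers and 6.50 and 4.24 FPKM in the cKO livers, 10.6-fold apart in the mean (0.507 ± 0.043 against 5.37 ± 1.598, SD, n = 2 each) and higher than in any P1 liver (log2 difference 2.06, SE 0.25, limma adjusted p = 2.71e-05). Cdh5 measured 3.10 and 2.65 against 15.9 and 13.8 FPKM, 5.16-fold (2.03, SE 0.20, limma adjusted p = 5.4e-06), and Pecam1 2.86 and 2.31 against 12.7 and 13.4 FPKM, 5.05-fold (1.97, SE 0.26, limma adjusted p = 4e-05). For these junction genes, too, the W4 cKO livers held the highest values of all 16 libraries. Kdr rose 3.63-fold, from 2.84 and 2.21 to 8.89 and 9.44 FPKM (1.53, SE 0.24, limma adjusted p = 0.000186). Vwf rose 4.12-fold, from 0.627 and 0.478 to 2.24 and 2.31 FPKM (1.08, SE 0.20, limma adjusted p = 0.000638), and remained below its P1 levels in both genotypes. None of these 5 calls was lost when a single library was left out or under any rescaling.

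The sinusoidal genes were less uniform. Clec4g was the most abundant of the 10 at W4 in either genotype, with 71.7 and 79.4 FPKM in cKO livers against 24.2 and 23.9 FPKM in Control livers, 3.14-fold (log2 difference 1.61, SE 0.23, limma adjusted p = 7.96e-05). Lyve1 rose 3.97-fold, from 1.57 and 1.06 to 4.86 and 5.58 FPKM (1.43, SE 0.28, limma adjusted p = 0.000739), and Oit3 3.37-fold, from 4.67 and 3.37 to 12.1 and 14.9 FPKM (1.54, SE 0.33, limma adjusted p = 0.00144). These 3 genes kept their calls under every alternative. Stab2 rose 1.75-fold, from 5.99 and 7.44 to 10.04 and 13.42 FPKM (0.72, SE 0.24, limma adjusted p = 0.0211), a call lost without Control replicate 1 (0.58, adjusted p = 0.115), without cKO replicate 2 (0.52, adjusted p = 0.154) after median-of-ratios rescaling (0.15, adjusted p = 0.621) and with W4 fitted alone (adjusted p = 0.0577). Stab1, at 11.20 and 11.04 against 15.2 and 14.5 FPKM, was 1.33-fold higher in cKO without overlap but was not called (0.38, 95% confidence interval -0.12 to 0.89, limma adjusted p = 0.176), and after median-of-ratios rescaling its difference was -0.20. Both stabilins therefore changed less than the other 8 genes, in the order of the fitted differences.

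**Figure D2:**
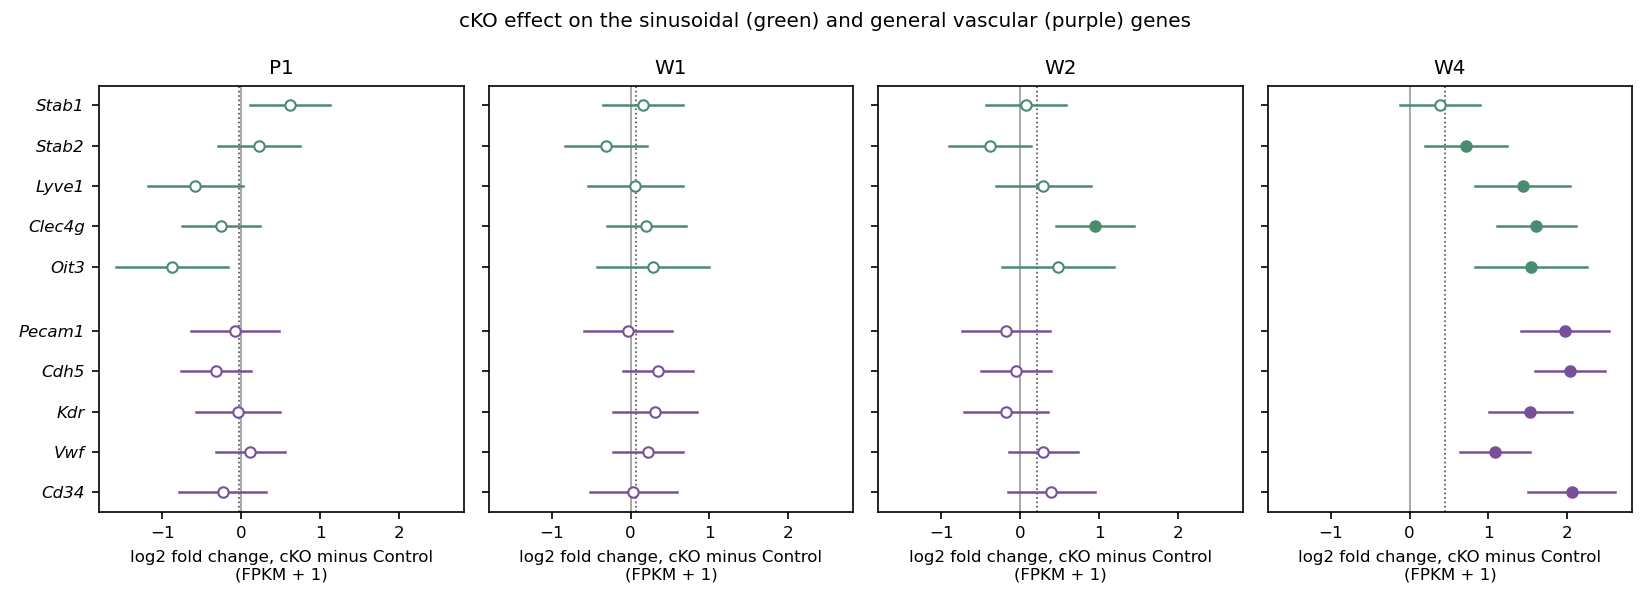
Log2 fold change between cKO and Control (log2 of FPKM + 1) with its 95% confidence interval from limma, for the 10 endothelial genes at each age. Green marks the sinusoidal and purple the general vascular genes, filled points passed an adjusted p of 0.05, the solid line is 0 and the dotted line the median of all genes tested. At W4 only Stab1, at 0.38, is open, and Cd34, Cdh5 and Pecam1 lie furthest to the right at 1.97 to 2.06.

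To compare the sets within each liver, the mean log2(FPKM + 1) of the 5 general vascular genes was subtracted from that of the 5 sinusoidal genes. The W4 Control livers had the largest differences of all 16, 1.549 and 1.604, and the W4 cKO livers 0.83 and 1.12, without overlap. The cKO minus Control difference of this measure was -0.60 at W4, against -0.06 at P1, -0.10 at W1 and 0.23 at W2, where the Control livers stood apart from each other at 1.04 and 1.44. The pooled SD between livers of a group was 0.15. With Kdr left out of the vascular set, since sinusoidal cells also make it, the W4 difference was -0.65, and with 0.1 FPKM added in place of 1 it was -0.99. The rest of the vascular set marks endothelium in general, so leaving out Kdr does not separate sinusoidal from other endothelium. In these 10 genes the vascular set thus outweighed the sinusoidal set in its W4 rise, by a margin that grew when low values were weighted more. Within the sinusoidal set Stab1 (0.38) and Stab2 (0.72) rose least, against 1.43 to 1.61 for Lyve1, Oit3 and Clec4g. The measure without the stabilins was not computed. The wider lists described below did not share this order. Their W4 medians were 1.14 for other sinusoidal genes, 0.86 for other pan-endothelial genes and 1.28 for genes listed for continuous and large vessels. No test across the 10 genes was made for this measure.

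The same comparison against Pecam1 within each liver separated the sinusoidal genes from one another. Stab1 stood above Pecam1 by 1.97 and 2.26 log2 units of FPKM in W4 Control and by 0.25 and 0.11 in W4 cKO, lower than in any other of the 16 livers. Stab2 went from 1.07 and 1.69 above Pecam1 to -0.34 and 0.01, again the lowest of all livers. Clec4g stayed well above Pecam1, by 3.08 and 3.37 in W4 Control and by 2.49 and 2.57 in W4 cKO, both of which exceeded every P1 and W1 liver. Lyve1 stood 0.87 and 1.12 below Pecam1 in Control (log2 ratio -0.87 and -1.12) and 1.39 and 1.26 below in cKO (-1.39 and -1.26). Within the vascular set, Cd34 went from -2.58 and -2.103 to -0.97 and -1.65 relative to Pecam1, whereas Cdh5 was at 0.12 and 0.20 in Control and 0.32 and 0.04 in cKO. Kdr, from -0.01 and -0.06 to -0.52 and -0.50, and Vwf, from -2.19 and -2.27 to -2.51 and -2.53, were lower against Pecam1 in W4 cKO without overlap, as were Stab1, Stab2, Lyve1, Clec4g and Oit3. Pecam1 itself rose by 1.97 at W4, where the median of all genes tested was 0.44. A gene that rose less than Pecam1 stands lower against it, and the share of all genes that did so was not computed.

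**Figure D3:**
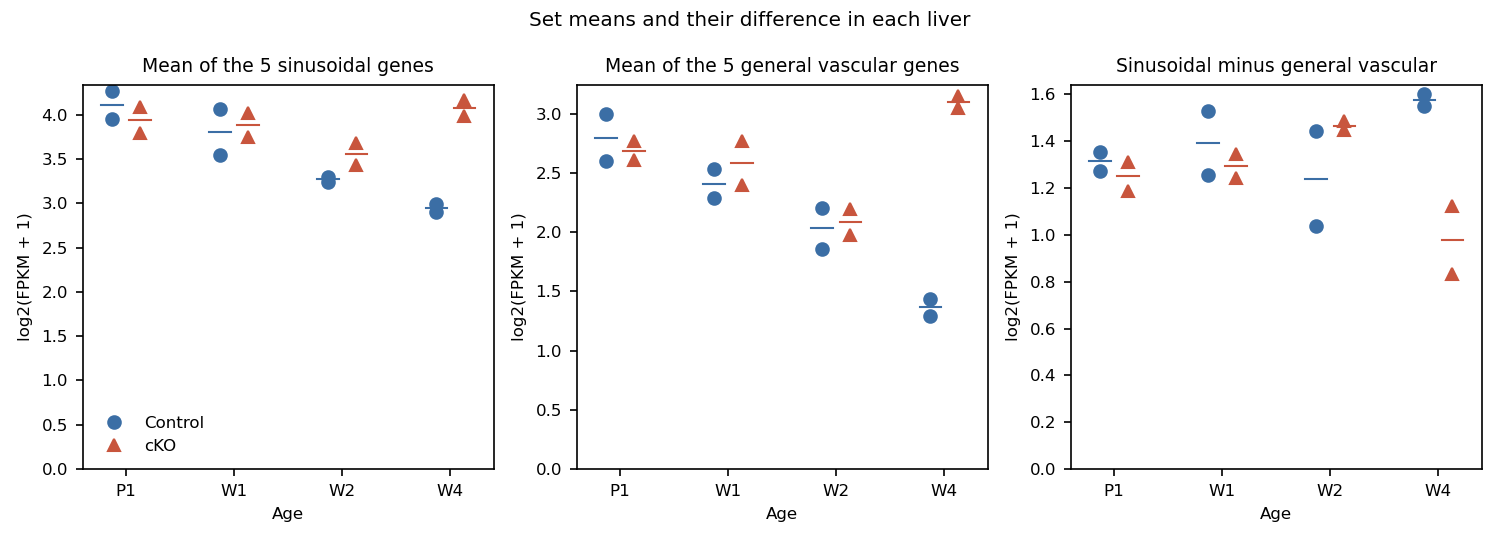
Mean log2(FPKM + 1) of the sinusoidal genes (left), of the general vascular genes (middle) and the difference between both means (right) in each liver, by age, with bars at the group means (blue circles Control, red triangles cKO, 2 livers each). Both means fall with age in Control and are high in W4 cKO, and the difference is 1.549 and 1.604 in W4 Control but 0.83 and 1.12 in W4 cKO.

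Within cKO liver the course from P1 to W4 divided the genes. Of the 10, 7 were called, where 57.1% of all genes tested were called and 31.7% were called higher. Of these 4 rose, namely Clec4g by 2.06 on the log2 scale (SE 0.23, limma adjusted p = 1.28e-05), Cdh5 by 0.95 (adjusted p = 0.00178), Cd34 by 0.84 (adjusted p = 0.0137) and Pecam1 by 0.68 (adjusted p = 0.0388). The other 3 fell, namely Stab1 by 1.30 (change -1.30, SE 0.23, limma adjusted p = 0.000497), Vwf by 0.67 (change -0.67, adjusted p = 0.0137) and Stab2 by 0.60 (change -0.60, adjusted p = 0.0467). Oit3 (0.69, SE 0.33, limma adjusted p = 0.0896), Kdr (0.26) and Lyve1 (-0.14) were not called. Of the sinusoidal genes, then, Clec4g was 4.34-fold higher in mean FPKM at W4 than at P1 and Stab1 was at 0.375 of its P1 mean. Pecam1 lost its call without any 1 of the 4 cKO livers compared (adjusted p from 0.0775 to 0.149), and after median-of-ratios rescaling (0.53, adjusted p = 0.0772). Stab2 and Vwf lost theirs without P1 cKO replicate 1 or W4 cKO replicate 1, and Cd34 without P1 cKO replicate 2 or W4 cKO replicate 1, so that 4 genes were called without P1 cKO replicate 1 and 3 without W4 cKO replicate 1. With a term for sex 3 were called (Stab1, Clec4g and Cdh5), as were 30.5% of all genes tested. That term was set by the P1 Control livers alone, the only group of mixed sex. Both P1 cKO livers were female and both W4 cKO livers male.

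The change from P1 to W4 differed between the genotypes for 8 of the 10 genes, where 46.8% of all genes tested were called. The differences, cKO minus Control, were 2.42 for Oit3, 2.35 for Cdh5, 2.29 for Cd34, 2.05 for Pecam1, 2.01 for Lyve1, 1.87 for Clec4g, 1.57 for Kdr and 0.96 for Vwf, with limma adjusted p from 7.18e-05 for Cdh5 to 0.0161 for Vwf. The call of Vwf was lost without P1 Control replicate 2 (0.78, adjusted p = 0.0723), P1 cKO replicate 2 (0.77, adjusted p = 0.0648) or W4 Control replicate 2 (0.89, adjusted p = 0.0526), and after median-of-ratios rescaling (0.60, adjusted p = 0.1005), when 7 of the 10 genes and 37.8% of all genes tested were called. Stab2, at 0.49 (SE 0.34, adjusted p = 0.252), and Stab1, at -0.23 (SE 0.33, 95% confidence interval -0.95 to 0.48, adjusted p = 0.583), were not called. Stab1 fell by 1.07 in Control (change -1.07) and by 1.30 in cKO (change -1.30). After median-of-ratios rescaling the difference in course was -0.84 for Stab1 (adjusted p = 0.0683) and -0.10 for Stab2 (adjusted p = 0.839), so which of the stabilins differed least depended on the scaling. The joint test of whether the cKO effect varied over the 4 ages called 9 of the 10, all but Stab1 (adjusted p = 0.445), where 49.6% of all genes were called. That test took in W1, where sex and genotype coincide, and P1, where sex was unbalanced, so it cannot separate sex from genotype there. It called 8 with a term for sex (40.6% of all genes) and 7 after median-of-ratios rescaling (43.6%). Averaged over the ages, 7 were called higher in cKO (Stab1, Clec4g and the 5 vascular genes, from 0.31 for Stab1 to 0.63 for Clec4g), where 50.4% of all genes were called. Stab1 lost that call without any 1 of 12 of the 16 libraries (adjusted p from 0.055 to 0.0989), while Lyve1 and Oit3 each gained one without W1 Control replicate 1 or W2 cKO replicate 2. With a term for sex this count was 0, where 24.6% of all genes tested were called. Sex varied within P1 Control alone, so that term rested on the livers of that group, and this fit cannot separate sex from genotype.

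**Figure D4:**
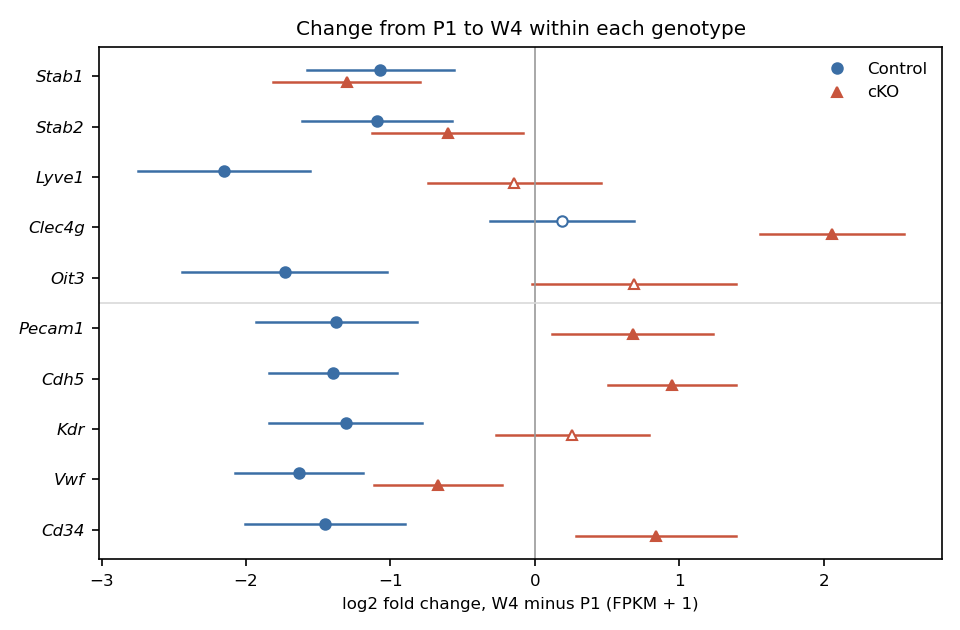
Log2 fold change from P1 to W4 (log2 of FPKM + 1) within Control (blue circles) and within cKO (red triangles), with 95% confidence intervals from limma, and filled symbols where the adjusted p was under 0.05. In Control 9 genes lie left of 0, between -2.15 and -1.07. In cKO Clec4g, Cdh5, Cd34 and Pecam1 lie right of it with filled symbols, and Oit3 (0.69) and Kdr (0.26) with open ones. Stab1 in cKO overlaps its Control value.

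Further endothelial genes rose at W4, sinusoidal and general alike, where 46.9% of all genes tested were called higher. Of 13 other sinusoidal genes tested, 12 rose and none fell (median 1.14), among them Rspo3, an enhancer of Wnt signalling in the lobule (log2 difference 1.57, SE 0.16, limma adjusted p = 6.16e-06), Bmp2, the BMP ligand that induces hepcidin in hepatocytes (1.51, limma adjusted p = 0.000286), and Flt4, VEGF receptor 3 (1.09, limma adjusted p = 0.000446). Rspo3 measured 0.922 and 0.882 FPKM in Control livers and 5.03 and 4.27 FPKM in cKO. Of 20 other pan-endothelial genes 16 rose and none fell (median 0.86). Ecscr, an endothelial surface protein, went from 1.24 and 1.35 to 12.6 and 13.3 FPKM (2.60, SE 0.18, limma adjusted p = 4.3e-07), the adhesion molecule Esam from 4.29 and 3.26 to 16.5 and 14.2 FPKM (1.78), and Nos3, the endothelial nitric oxide synthase, from 1.71 and 2.18 to 3.76 and 5.08 FPKM. Of 13 tested genes listed for continuous and large vessels 10 rose and none fell (median 1.28). Vcam1 (2.58), Plvap, which forms the diaphragms of fenestrae and caveolae (1.78), and Icam1 (1.41) had the smallest adjusted p. Sox17 of this list was not called, at 2.47 and 3.07 FPKM in Control livers and 2.03 and 2.32 FPKM in cKO. The name of the list does not place these transcripts in a vessel type, and bulk liver does not show which cells made them. After median-of-ratios rescaling 9 of 13 other sinusoidal, 9 of 20 pan-endothelial and 10 of 13 continuous vessel genes rose, with medians of 0.58, 0.44 and 0.84, and 1 continuous vessel gene fell, where 26.3% of all genes tested were called higher.

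Mmrn2, which encodes a matrix protein deposited by endothelium, differed from the 10 genes in its timing. It measured 2.09 and 2.70 FPKM in Control livers and 2.104 and 1.58 FPKM in cKO at P1, where the groups overlapped. At W1 it measured 3.25 and 2.43 against 6.02 and 6.86 FPKM (log2 difference 0.96, limma adjusted p = 0.00979), at W2 2.33 and 3.44 against 13.7 and 12.6 FPKM (1.88, limma adjusted p = 4.23e-05) and at W4 1.14 and 1.33 against 9.61 and 9.16 FPKM (2.22, limma adjusted p = 1.0e-06). It was the single pan-endothelial gene called at W1, the age at which sex and genotype coincide, and its highest values were those of the W2 cKO livers, at which age Pecam1, Cdh5 and Kdr were not called.

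Among the ligands and receptors that act on endothelium, 12 of 18 tested rose at W4 and 2 fell (median 0.88; 11 and 4 after median-of-ratios rescaling). Of all 14913 genes tested 6989 were called higher and 1844 lower, and 3922 and 3653 after that rescaling. Angpt2, the antagonist ligand of the receptor Tie2, rose from 0.194 and 0.101 to 4.44 and 3.76 FPKM (2.15, SE 0.16, limma adjusted p = 6.19e-07) and had already risen at W2, from 0.164 and 0.0954 to 0.821 and 0.954 FPKM (0.74, limma adjusted p = 0.00473). Vegfc, a ligand of Flt4, rose from 1.38 and 1.40 to 8.35 and 6.26 FPKM (1.78, limma adjusted p = 1.2e-06), and Gdf2, which encodes BMP9, a ligand of the endothelial receptor ALK1, from 6.15 and 4.60 to 22.4 and 17.5 FPKM (1.72, limma adjusted p = 2.93e-05). Those that fell were Vegfd (-0.73) and Vegfa, the main ligand of Kdr. Vegfa measured 96.7 and 102.7 FPKM in W4 Control livers and 49.5 and 46.0 FPKM in W4 cKO (-1.05, SE 0.19, limma adjusted p = 0.000562), so that the ligand fell while its receptor Kdr rose. It was also lower at W1, at 51.6 and 50.6 against 92.8 and 97.6 FPKM (-0.88, limma adjusted p = 0.0233), where 4.83% of all genes tested were called. Sex and genotype coincide at that age and cannot be told apart. Of the lymphatic markers, Reln (1.49) and Pdpn (0.84) rose at W4, Mmrn1 (0.28, adjusted p = 0.169) did not pass, and Reln also stands among the stellate cell markers.

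Markers of other cell types moved at W4 as well, and their part in the endothelial changes was not tested. All 12 stellate cell and fibroblast markers rose (median 2.35), with summed levels of 109.9 to 110.4 FPKM in Control livers and 447 to 580 FPKM in cKO, Col1a1 (3.47), Col3a1 (2.71) and Dcn (2.63) among them. Of 10 Kupffer cell and macrophage markers 9 rose and Cd163 fell (-0.64; list median 1.71; sums of 99.7 to 146 against 415 to 446 FPKM), Cd68 (2.90), Marco (3.00) and Csf1r (1.63) among those that rose. All 5 cholangiocyte markers tested rose (median 3.30; 16.4 to 17.9 against 169 to 262 FPKM), with Epcam at 3.76, Spp1 at 3.34 and Krt7 at 3.09. Of 10 hepatocyte markers 6 fell and none rose (median -0.78; 58076 to 65572 against 29182 to 30065 FPKM), Ttr by 2.08 (change -2.08) and Trf by 1.93 (change -1.93). Among all 14913 genes tested 6989 were called higher at W4 and 1844 lower. Megakaryocyte markers stayed low, at 5.42 to 7.10 FPKM in Control livers and 9.99 to 10.6 FPKM in cKO, far below their sums at P1, with Pf4 (1.07) and Itgb3 (0.95) called, neither of them after median-of-ratios rescaling, Gp9 not called (-0.56, adjusted p = 0.167) and a median of 0.07. Of the 10 erythroid and progenitor markers 2 rose and 3 fell (median -0.09). Cd48 rose (1.34) and Alas2 fell (-2.19), as did Hba-a2 (-2.29), which shares its sequence with a near-identical copy. At W2 3 of the 10 hepatocyte markers were called higher in cKO, Apob (1.51) among them, as were 3675 of the 14913 genes tested. After median-of-ratios rescaling 1 of the 10 was called higher and 1 lower. At that age the sums of the 5 general vascular genes were 16.6 to 20.4 FPKM in Control livers and 16.4 to 19.2 FPKM in cKO.

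**Figure D5:**
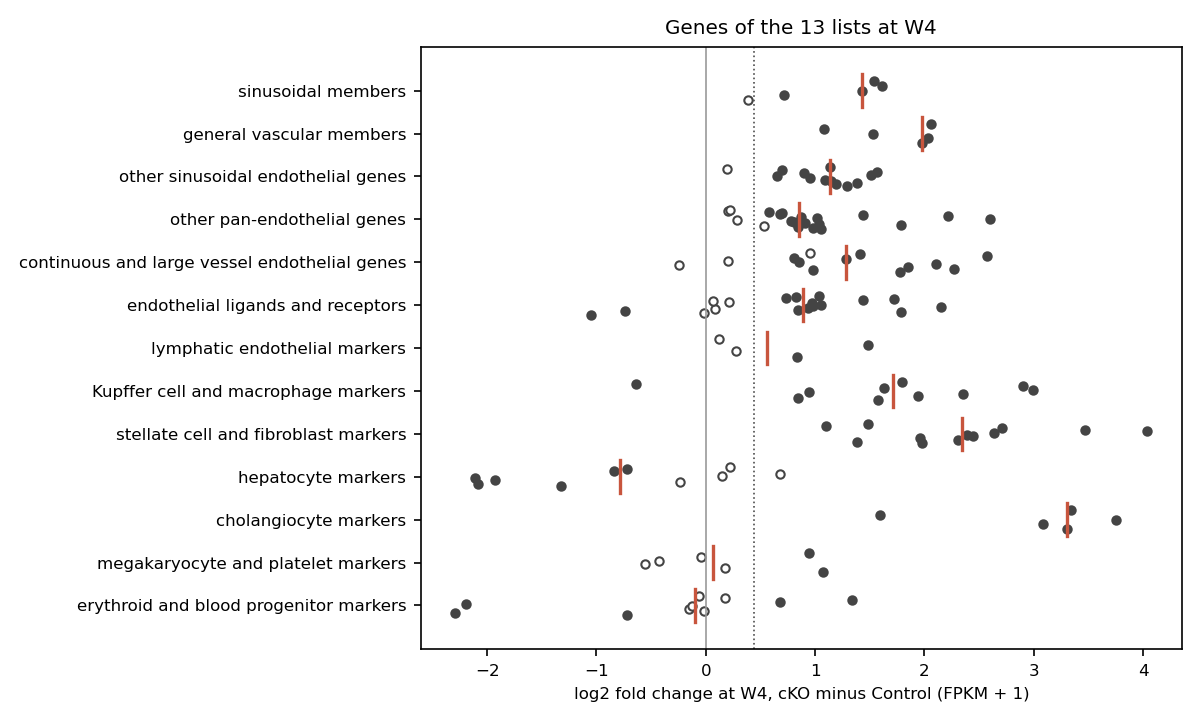
Log2 fold change at W4 between cKO and Control (log2 of FPKM + 1) for every tested gene of the 13 lists, 1 point per gene, filled where the limma adjusted p was under 0.05. Red bars are list medians and the dotted line is the median of all genes tested, 0.44. The endothelial lists lie between that line and the stellate and cholangiocyte lists, whose medians are 2.35 and 3.30, and the hepatocyte median is -0.78.

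Over the 16 libraries the 5 general vascular genes were alike in pattern, with Pearson correlations of log2(FPKM + 1) from 0.68 to 0.94 over 10 pairs (median 0.84). The sinusoidal genes were not: their 10 pairs ran from -0.46 to 0.92 (median 0.25). The genes outside both sets with the pattern most like the mean of the vascular genes were Myo1c (r = 0.96), Snx6 (0.96), Emilin1 (0.96), Cotl1 (0.96) and Plekha1 (0.96), and for the sinusoidal mean Cotl1 (0.96), Marcksl1 (0.96), Limd2 (0.95), Msn (0.94) and Tpm4 (0.94). These correlations describe libraries that share ages, genotypes and the scaling of each library, and none is an endothelial marker of the lists used here.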

How the data were processed

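Liver RNA of 16 mice was sequenced as paired-end poly-A libraries from a kit that does not mark strand. The authors aligned reads to mm10 with HISAT2 2.1.0 and deposited 1 table of FPKM per gene for 53379 genes. Its header names no unit: FPKM was read from the values, the tool that counted reads and its gene models were not given in the sources used here, and each of the 16 value columns matched 1 sample's title. The submitters' notes also name DESeq2, which needs counts and was not run here.

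Values were analysed as log2(FPKM + 1) with limma 3.58.1 in R 4.3.3 (intensity trend, 8 group means over all 16 libraries, Benjamini-Hochberg over the 14913 genes that reached 1 FPKM in 2 or more libraries, calls at an adjusted p under 0.05). Adding 1 FPKM understates the change of low genes. SDs are over 2 livers. Depth was estimated with Python 3.11.15 from the steps of low values, which fell within 0.05 of a whole read for 69.2% to 75.4% of them. Sex was read from Xist and Eif2s3y (male at 1 FPKM or more).

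The 10 genes and the 13 lists were chosen with earlier results of these data known. Besides the 10, up to 3 genes per list with the smallest adjusted p at any age or for the mean effect are named, and 5 genes per set by likeness over the libraries. Nos3, Sox17, Vegfa, Vegfd, Cd163 and Nt5dc2 fall outside that rule and were chosen after their values were seen. Promoters are those of RefSeq (GRCm38.p6). Alternatives were median-of-ratios and nuclear-total rescaling, 0.1 FPKM added, no filter, a term for sex, the replicate number as a block, no intensity trend, each age alone, the study's threshold (unadjusted p under 0.05 and a log2 change beyond 1), the vascular set without Kdr, and each library left out. The procedure was tested on simulated data.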

Additional observations from a re-analysis of the deposited data

Results flagged for a closer look

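The effect of cKO differed between the 4 ages for 9 of the 10 endothelial genes by the joint limma test, which called 49.6% of the 14913 genes tested. The adjusted p was 0.0457 for Stab2, 0.00717 for Lyve1, 0.00271 for Clec4g and 0.00727 for Oit3 among the sinusoidal genes. It was 0.00135 for Pecam1, 0.000276 for Cdh5, 0.00549 for Kdr, 0.0441 for Vwf and 0.00135 for Cd34 among the general vascular genes. The test took in W1, where sex and genotype coincide, and P1, where sex was unbalanced, so it cannot separate sex from genotype there. With a term for sex, which rested on the P1 Control livers alone, it called 8 of the 10 (40.6% of all genes). After median-of-ratios rescaling it called 7 (43.6%). In each of the 9 called as deposited, the largest of the 4 age effects was that of W4, when both cKO livers lay above both Control livers. For Stab2 this turned with the scaling: after median-of-ratios rescaling its effect was -0.77 at W2 and 0.15 at W4, and after nuclear rescaling -0.87 and 0.77. Stab2 lost its call without any 1 of 13 of the 16 libraries and Vwf without any 1 of 9, so both stood close to the threshold.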

How the results depend on the processing

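With each age fitted alone 0 endothelial genes were called at W2, against 1, but this fit called 0 of all 14913 genes there. By the study's threshold 0 were called at W2 and for the mean over ages, where 12.6% and 4.23% of all genes were. The mean over ages called 4 after median-of-ratios rescaling (41.5% of all genes) and 0 with a term for sex (24.6%), against 7 (50.4%). The change from P1 to W4 in cKO called 3 with a term for sex (30.5% of all genes) and 2 by the study's threshold (29.2%), against 7 (57.1%). The sex term rested on the P1 Control livers alone, so these drops do not show what sex contributed. Leaving out 1 library at a time gave 0 to 2 calls at W2 and 3 to 6 for P1 to W4 in cKO, and a group left with 1 liver was then assumed to vary like the others. The sinusoidal minus vascular measure ran from 0.0237 to 0.43 at W2 over these omissions. With 0.1 FPKM added it was -0.99 at W4, 0.61 for P1 to W4 in Control and -0.92 for the difference between genotypes in that change, against -0.60, 0.26 and -0.53. The cause of these shifts was not tested. Of the 90 results for single genes, 78 kept their side of the threshold after median-of-ratios rescaling, 86 after nuclear rescaling, 89 with 0.1 FPKM added, 78 with a term for sex and 90 without the intensity trend, and no called result reversed.

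Replicate numbers did not pair the livers: same-numbered livers deviated from their group means with correlations of 0.02, 0.13, 0.02 and 0.09 at P1, W1, W2 and W4. With the replicate number as a block 88 of the 90 results kept their side of the threshold, and calls went from 7 to 6 for P1 to W4 in cKO and from 9 to 8 for genotype by age, Stab2 losing its call in each (adjusted p = 0.056 and 0.0579). With 2 livers per group and about 43 reads behind the lowest Lyve1 value and 45 behind the lowest Cd34 value, small differences at a single age could be missed.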
